A study of Mus musculus with 12 samples.

Results

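The 36 genes described here mark neurons of the cerebral cortex, the hippocampus and the striatum, and were followed in 12 libraries labelled as spinal cord, which the study's methods place in its lumbar part, the part that serves the hind limbs. They were taken as a written list of cortical, hippocampal and striatal genes, and each of the 36 symbols matched 1 Ensembl gene among the 49548 genes counted. By role, 5 are patterning factors of the early forebrain, 10 are transcription factors of excitatory neurons and cortical layers, 9 are other genes of excitatory forebrain neurons, 7 are striatal genes and 5 are transcription factors of GABAergic neurons.

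The labels give spinal cord RNA of 8 MFN2 mice and 4 WT mice, all untreated and 30 days old, to look for transcripts that mark the disease in a mouse model of Charcot-Marie-Tooth disease type 2A. MFN2 mice are MitoCharc1 animals of the line L51Ugfm/J, with the transgene Tg(Eno2-MFN2*R94Q) on a B6;D2 background, in which the rat Eno2 promoter, active in neurons, drives a human MFN2 cDNA with the R94Q mutation while both copies of mouse Mfn2 are kept. WT mice are given as C57BL/6 in the labels and as littermates of the MFN2 mice in the study's methods, and which of these holds is not settled here. Libraries are numbered 41 to 47 and 72 to 76, with MFN2 mice in 41, 42, 43 and 72 to 76 and WT mice in 44 to 47, so that in the second run of numbers genotype and run cannot be told apart. Each library holds 1 mouse, and p-values measure the spread between these libraries. Total counts ranged from 19359454 to 26738930 per library. Mouse Mfn2 averaged 206 ± 12.8 CPM (SD, n = 8) among the MFN2 libraries, with 223 CPM in library 43, and 213 ± 15.1 CPM (SD, n = 4) among those of WT mice, and the human transgene was not analysed here. Levels are given in CPM, counts scaled to the size of each library after TMM normalization.

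The telencephalon, from which cortex, hippocampus and striatum derive, is set apart early in development by homeobox and zinc finger factors, and its excitatory neurons then pass through a series of basic helix-loop-helix and T-box factors. Striatal projection neurons and cortical interneurons arise instead from the ganglionic eminences under factors of the Dlx family. Position along the spinal cord is written by the caudal Hox genes, which forebrain cells do not use. Many genes known for their forebrain role are also used by neurons of the dorsal horn or by other cells of the cord, so that a regional marker of the brain is not by itself absent from the cord.

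Library 43, of an MFN2 mouse, stood apart from the other 11 libraries. Its levels of the 36 genes are therefore given apart from theirs, and the edgeR comparisons of genotypes and of runs of library numbers are given with and without it. It is 1 library, so its values carry no test. In it, the 36 genes summed to 6438 CPM, against 772 to 870 CPM in the other 11 libraries. At the same time the defining genes of the labelled tissue were low there. The 21 caudal Hox genes examined summed to 84.6 CPM in library 43 and to between 478 and 611 CPM in the others, with Hoxb8, the most abundant of them, at 19.3 CPM in library 43 and between 74.4 and 149 CPM in the others. No caudal Hox gene of the list was at 0 in library 43. The 8 motor neuron genes examined were all lowest in library 43, and summed to 39.6 CPM there against 163 to 388 CPM. These values go against the tissue label of library 43, and the tissue it was made from is not settled here. Fewer cells of a type and less RNA per cell cannot be told apart in such bulk samples.

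Of the 36 genes, 32 were highest in library 43, where 29.4% of all genes above 1 CPM in that library were highest. More than 2-fold above the highest of the other 11 libraries were 29 of the 36, against 5.48% of those 15317 genes. A further 3, Cux2, Rorb and Wfs1, were highest in library 43 by less than 2-fold, 3 were lowest there (Prox1, Lamp5 and Drd2), and Rasgrf2 was neither. Over the 32 genes whose median in the other 11 libraries was above 0, the median ratio of library 43 to that median was 13.7, and over all genes above 1 CPM in library 43 it was 1.01. The 29 genes comprised 5 of 5 patterning factors, 7 of 10 excitatory and layer factors, 6 of 9 other excitatory genes, 6 of 7 striatal genes and 5 of 5 GABAergic factors.

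**Figure D1:**
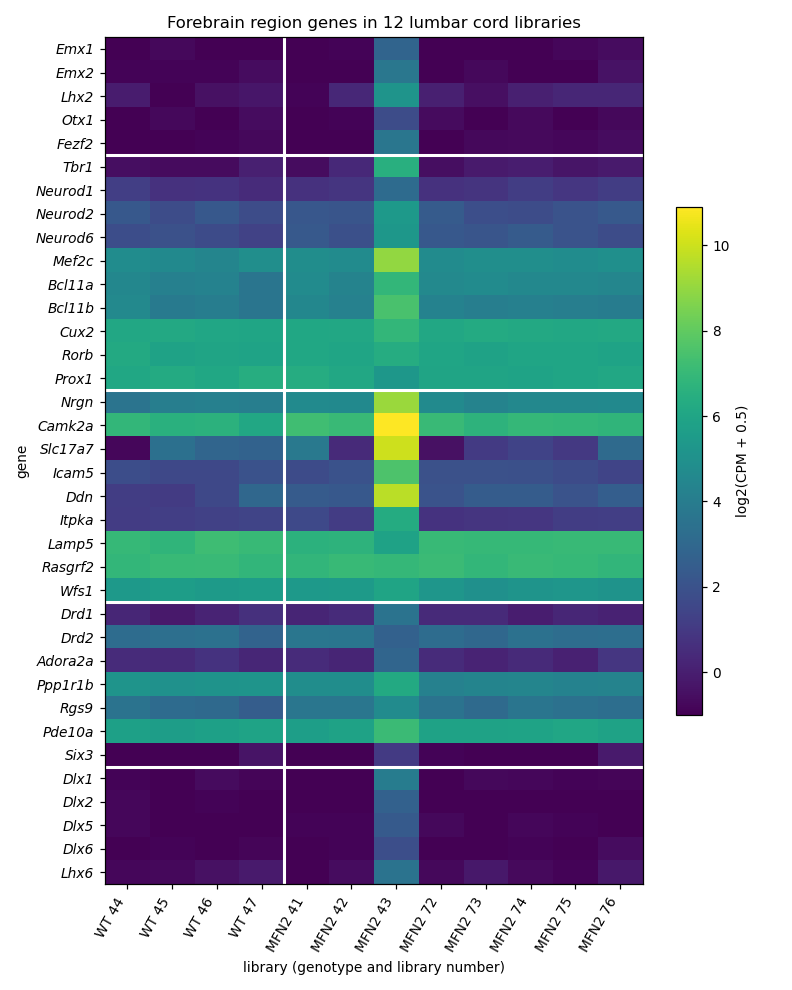
Levels of the 36 forebrain region genes (one line of cells each, grouped by role from patterning factors at the top to GABAergic factors at the bottom) in the 4 WT and 8 MFN2 libraries, coloured by log2(CPM + 0.5). The column of MFN2 library 43 is brighter than the other 11 columns for 32 genes and darker for Prox1, Lamp5 and Drd2.

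The patterning factors were near 0 in 11 libraries and plainly present in 1. Emx1 and Emx2, homeobox factors of the dorsal telencephalon, were at 6.76 and 12.8 CPM in library 43. Emx1 was at 0 in 7 of the other libraries and at most at 0.153 CPM, a ratio of 44.2 to the highest that rests on 3 counts there (95% interval of counting error 14.8 to 217). Emx2 was at 0 in 5 of the others and reached 0.255 CPM in library 76. So neither gene was measured in cord at a level that these depths resolve. Lhx2, a LIM homeobox factor needed for cortical identity, was at 35.7 CPM in library 43, and between 0 (WT library 45) and 0.764 CPM (MFN2 library 42) in the others, with a median of 0.437 CPM. Fezf2, which specifies the neurons that project from layer 5 to brainstem and cord, was at 12.2 CPM against at most 0.153 CPM (3 counts, interval of the ratio 27.1 to 391). Otx1, a homeobox factor of deep cortical layers, was the lowest of the group at 2.91 CPM against at most 0.157 CPM (3 counts, interval of the ratio 6.07 to 92.6). Together the 5 genes summed to 70.4 CPM in library 43 and to between 0.0381 and 1.38 CPM in the others.

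Among the transcription factors of excitatory neurons, Tbr1, a T-box factor of layer 6 on chr2:61802930-61814114 (GRCm38), had the widest gap. It was at 89.7 CPM in library 43 and between 0.133 and 0.802 CPM in the other 11, with a median of 0.310 CPM, which makes it 112-fold above the highest of them. Neurod1, Neurod2 and Neurod6, basic helix-loop-helix factors that take neurons from progenitor to mature excitatory cell, followed a different pattern, since all 3 were also counted in cord. Neurod2 was at 42.7 CPM in library 43 and between 2.90 and 4.83 CPM in the others. For Neurod6 the values were 39.4 CPM and 2.09 to 4.87 CPM, and for Neurod1 they were 8.45 CPM and 0.887 to 1.83 CPM. Each of the 3 was thus several-fold above the highest other library, from 4.61-fold for Neurod1 to 8.84-fold for Neurod2. Mef2c, a MADS-box factor of activity-dependent transcription, was the most abundant factor of the list in library 43 at 508 CPM, against 21.2 to 30.2 CPM elsewhere. Bcl11a and Bcl11b, zinc finger factors of cortical projection neurons, the latter also of striatal neurons, were at 118 and 181 CPM against at most 26.4 and 23.8 CPM.

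The layer factors at the end of this group did not share the gap. Cux2, a homeobox factor of upper layers, was at 116 CPM in library 43 and between 63.1 and 76.5 CPM in the others, 1.52-fold above the highest. Rorb, the orphan receptor that marks layer 4 and also a class of dorsal horn interneurons, was at 83.2 CPM against 57.1 to 75.3 CPM. Prox1, a homeobox factor of dentate granule cells, was lower in library 43, at 39.5 CPM, than in each of the other 11, which ranged from 59.0 to 83.7 CPM.

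The sequences next to the start of 3 of these genes are shown because the Neurod factors, which were high in library 43, bind E-boxes of the form CAGATG, which reads as CATCTG on the other strand. They are RefSeq entries on GRCm38.p6, 5′ to 3′ on the strand of the gene, up to the RefSeq start or the first annotated exon, whichever came first, with the E-box in capitals. The first is the Neurod2 promoter on the minus strand (chr11:98329649-98329895), the second that of Nrgn on the minus strand (chr9:37552905-37552995), a gene that was 21.7-fold above the highest other library, and the third that of Prox1 on the minus strand (chr1:190170828-190171077), which was lowest in library 43.
Neurod2: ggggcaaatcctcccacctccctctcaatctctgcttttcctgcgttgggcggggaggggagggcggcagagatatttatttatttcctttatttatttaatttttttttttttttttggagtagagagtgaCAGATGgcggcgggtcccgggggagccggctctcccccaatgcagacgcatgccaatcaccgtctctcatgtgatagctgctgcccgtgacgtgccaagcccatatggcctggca
Nrgn: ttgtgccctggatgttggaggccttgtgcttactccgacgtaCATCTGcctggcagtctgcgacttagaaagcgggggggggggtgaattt
Prox1: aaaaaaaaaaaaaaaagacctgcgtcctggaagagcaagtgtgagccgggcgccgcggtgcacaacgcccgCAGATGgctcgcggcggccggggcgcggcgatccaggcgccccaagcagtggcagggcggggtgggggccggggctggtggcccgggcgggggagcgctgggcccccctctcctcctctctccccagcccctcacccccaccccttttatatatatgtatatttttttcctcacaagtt
The 250 bases before the start were searched on both strands for these 6 letters in every RefSeq promoter. Entries were found for 29 of the 36 genes, with 40 promoters in all. The E-box was in 20% of the 40, and in 14.4% of all 32851 promoters. It was present for 5 of the 22 genes with an entry that were more than 2-fold above the other libraries in library 43 (Mef2c, Neurod2, Nrgn, Pde10a and Rgs9) and for 3 of the 7 that were not (Cux2, Prox1 and Wfs1). A match describes these letters only and not a bound site.

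The other genes of excitatory forebrain neurons gave the largest amounts of RNA. Camk2a, the alpha subunit of the calcium/calmodulin kinase of the postsynaptic density, was at 1920 CPM in library 43 and between 69.5 and 152 CPM in the other 11. Slc17a7, on chr7:45163949-45176142, encodes the vesicular glutamate transporter VGLUT1 of cortical and hippocampal terminals, and was at 1032 CPM against 0.0873 to 13.6 CPM, with a median of 2.09 CPM. Ddn, which encodes the dendritic protein dendrin, was at 819 CPM against 1.60 to 7.36 CPM, 111-fold above the highest. These 3 genes alone made up most of the summed level of the group, which was 4836 CPM in library 43 and between 397 and 474 CPM in the others. Nrgn, on chr9:37544492-37552904, encodes neurogranin, which holds calmodulin in dendritic spines, and was at 551 CPM against 11.7 to 25.4 CPM. Icam5, the telencephalon-specific adhesion molecule telencephalin, was at 191 CPM against 2.24 to 3.51 CPM. Itpka, a kinase of inositol trisphosphate in spines, was at 78.6 CPM against 1.19 to 2.56 CPM. All 3 lay far above the highest other library, from 21.7-fold for Nrgn to 54.4-fold for Icam5.

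The remaining 3 genes of this group were close to, or below, their cord level. Wfs1, the endoplasmic reticulum protein wolframin, a marker of hippocampal field CA1 and of the striatum, was at 62.5 CPM against 31.0 to 48.6 CPM. Rasgrf2, a calcium-regulated exchange factor for Ras that marks upper cortical layers, was at 123 CPM, inside the range of 115 to 139 CPM of the others. Lamp5, a membrane protein of a class of cortical interneurons and of other neurons, was at 58.5 CPM, below the 101 to 147 CPM of the others.

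Striatal genes lay less far above their cord level. The 3 striatal enzymes and regulators with a clear cord level were each just past 2-fold. Ppp1r1b, which encodes the dopamine-regulated phosphatase inhibitor DARPP-32, was at 75.5 CPM against 18.3 to 35.5 CPM, Rgs9, a regulator of G protein signalling, was at 26.6 CPM against 5.22 to 12.5 CPM, and Pde10a, a phosphodiesterase of striatal projection neurons, was at 138 CPM against 48.3 to 65.1 CPM. Their ratios to the highest other library lay between 2.12 and 2.13, and are the nearest above 2-fold, with Cux2 at 1.52 the nearest below. Among the receptors, Drd1, the dopamine receptor of the direct pathway, was at 10.9 CPM against 0.377 to 1.10 CPM, and Adora2a, the adenosine receptor of the indirect pathway, was at 6.90 CPM against 0.581 to 1.33 CPM. Drd2, the dopamine receptor of the indirect pathway, was lowest in library 43, at 6.05 CPM against 6.52 to 12.1 CPM. Adora2a was thus above its cord range, and Drd2 was just under its own, at 0.928 times the lowest other library on 129 counts. Gpr6, a receptor gene of the further striatum list below, was at 3.05 CPM against 0.220 to 0.916 CPM. Six3, a homeobox factor of striatal neurons, was at 1.55 CPM and at 0 in 8 of the other libraries, with at most 0.408 CPM. The group summed to 266 CPM in library 43 and to between 94.6 and 111 CPM in the others.

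The GABAergic factors were close to 0 in the other 11 libraries. Dlx1, a homeobox factor of the ganglionic eminences, was at 15.6 CPM in library 43 against at most 0.133 CPM (3 counts, interval of the ratio 39.9 to 573). Dlx2 was at 5.96 CPM and at 0 in 9 of the others (2 counts in the highest, interval of the ratio 18.5 to 570). Dlx5 and Dlx6, the neighbouring pair on chromosome 6, were at 4.60 and 3.10 CPM, against at most 0.0879 and 0.153 CPM (2 counts, interval 14.1 to 438, and 3 counts, interval 6.63 to 101). Lhx6, which guides interneurons of the medial ganglionic eminence, was at 10.9 CPM against at most 0.417 CPM. Such intervals cover counting error only.

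To see which regions the genes of library 43 belong to, 18 further lists with 160 genes, chosen for regions and cell types of the brain and cord, were read in the same way. Among all genes over 1 CPM in library 43, 29.4% were highest there and 5.48% were more than 2-fold above the highest other library. The counts of each list below stand beside these shares. They also include genes under 1 CPM in library 43, which the shares leave out. Lhx8 of the forebrain interneuron list (0.328 CPM), Eomes of the olfactory bulb list (0.657 CPM) and Iyd of the CA list (0.892 CPM) are such genes. Each of them was counted as more than 2-fold above. In the cortex list, 14 of 14 genes were highest in library 43 and 11 were more than 2-fold above the highest other library, with a median ratio to the other libraries' median of 8.42 and a summed level of 818 CPM against 191 to 237 CPM. Lmo3, a LIM-only factor, was the most abundant gene of the list in library 43, at 186 CPM against 17.1 to 28.5 CPM. Cplx3, a complexin of the cortical subplate, was at 4.36 CPM against at most 0.261 CPM, and Nr4a2, an orphan nuclear receptor of deep cortical layers, was at 27.9 CPM against 1.72 to 3.81 CPM. Of the forebrain interneuron list, 7 of 8 genes were highest and 6 more than 2-fold above, with the interneuron peptide gene Vip at 14.1 CPM against 0.730 to 1.92 CPM, while Nkx2-1, the factor of the medial ganglionic eminence itself, was at 0.0938 CPM.

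Lists of the hippocampus were mixed. Of the genes of fields CA1 to CA3, 3 of 6 were highest in library 43 and 2 more than 2-fold above, with Fibcd1 at 13.4 CPM against 2.56 to 5.54 CPM and Spink8 at 0.141 CPM, under the highest of the others. The dentate gyrus list had 3 of 6 genes highest and 1 more than 2-fold above. That gene, C1ql3, which encodes a secreted synaptic protein also made in cortex, was at 171 CPM and made up 88.3% of the list's sum in library 43. C1ql2, which is restricted more to granule cells, was at 2.49 CPM against 0.655 to 2.45 CPM, and Dsp, which encodes desmoplakin, was at 0.657 CPM against 0.417 to 1.75 CPM. Prox1, described above, was below its cord range.

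For the striatum, 10 of 13 listed genes were highest in library 43 and 5 more than 2-fold above, with a median ratio of 1.78. Gng7, a G protein subunit, and Foxp1, a forkhead factor, were at 112 and 90.0 CPM against at most 28.2 and 31.6 CPM. In contrast Scn4b, a sodium channel subunit, was at 71.3 CPM against 240.4 to 341 CPM, and Ebf1 was at 18.4 CPM against 30.4 to 73.98 CPM. The 4 genes of the olfactory bulb included 2 more than 2-fold above, with Cdhr1 at 14.8 CPM and making up 90.0% of the sum, and with Tbx21, which marks the projection neurons of the bulb, at 0.0938 CPM.

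**Figure D2:**
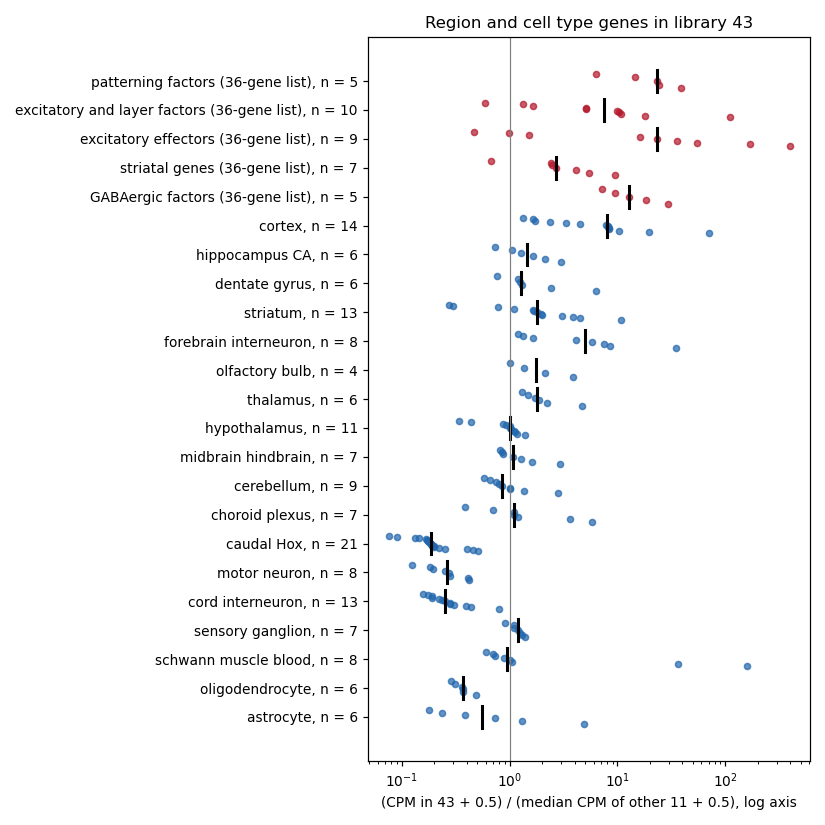
Level in library 43 over the median level of the other 11 libraries, with 0.5 CPM added to both, on a log axis, for each gene (points) of the 5 groups of the 36-gene list (red) and of 18 region and cell type lists (blue), with the median of each list as a black bar. Cortical and forebrain interneuron lists lie to the right of the line at 1, and caudal Hox, motor neuron, cord interneuron and oligodendrocyte lists to its left.

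Lists of regions behind the telencephalon, and that of the choroid plexus, held several genes near 0. Their counts stand beside 29.4% highest and 5.48% more than 2-fold above among all genes over 1 CPM in library 43. All 6 thalamus genes were highest in library 43, yet 1 of them, Ramp3, was more than 2-fold above, at 5.21 CPM against 0.502 to 1.02 CPM, and the median ratio was 1.92, above the 1.78 of the striatum list. In the hypothalamus list, 2 of 11 genes were highest and 1 was more than 2-fold above, namely Avp on 4 counts. Hcrt, Agrp and Nr5a1 were at 0. The median ratio was 0.650 over the 8 genes with a median above 0 in the other libraries. Over all 11, with 0.5 CPM added to both levels, it was 1.01. Of the midbrain and hindbrain list, 3 of 7 genes were highest and 2 were more than 2-fold above, of which Dbh rested on 8 counts. The median ratio was 1.99, and it was 1.085 with 0.5 CPM added to both levels. The 7 genes summed to 2.16 CPM in library 43, with Slc6a3, the dopamine transporter, at 1.22 CPM against at most 0.271 CPM. In the cerebellum list, the median ratio was 0.733 over the 8 genes with a median above 0 in the other libraries. Of its 9 genes, 2 were highest, 1 of them more than 2-fold above. That gene was Fat2, at 1.27 CPM against at most 0.402 CPM, while Gabra6, the receptor subunit of granule cells, was at 0 in library 43 and had a median of 0 in the others. In the choroid plexus list, the median ratio was 1.39 over the 6 genes with a median above 0 in the other libraries. Of its 7 genes, 1 was highest and was also more than 2-fold above. That gene was Otx2, at 1.31 CPM against at most 0.114 CPM, while Ttr was at 2.96 CPM in library 43 and reached 3.86 CPM in WT library 47.

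Cord genes were low in library 43 alongside these. The caudal Hox list had 17 of 21 genes both lowest in library 43 and below 0.5 times the lowest of the others, where 28.6% of all tested genes were lowest there and 3.16% were below 0.5 times. The median ratio to the other libraries was 0.162. All 8 motor neuron genes were below 0.5 times the lowest other library, with a median ratio of 0.179, and 11 of 13 cord interneuron genes, with 0.186. Slc6a5, the glycine transporter of inhibitory cord neurons, was at 76.3 CPM against 335 to 447 CPM. The oligodendrocyte list was at a median ratio of 0.365, with the myelin gene Mobp at 1057 CPM against 2440 to 3823 CPM. Of 6 astrocyte genes, 4 were lowest and 2 were highest, namely Slc1a2 at 4232 CPM and Slc1a3 at 562 CPM, both glutamate transporters. Prx, a myelin gene of Schwann cells, reached 35.5 CPM in library 43 and 50.4 CPM in library 73, and was at most at 1.22 CPM in the other 10. The part of these other cell types in the levels of the 36 genes was not tested.

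With library 43 left aside, the question is which of the 36 genes the cord itself transcribes. Above 1 CPM in all 11 libraries were 20 of the 36 genes, where 35.5% of the 38554 genes with any count were. With a limit of 1 RPKM, which takes gene length into account, the count of 20 became 13. A further 12 were at or below 1 CPM in all 11, namely the 5 patterning factors, Tbr1, Six3, the 4 Dlx genes and Lhx6, and 4 were on both sides of 1 CPM (Neurod1, Slc17a7, Drd1 and Adora2a). All 12 of the low genes, and 13 of the 20 others, were more than 2-fold above the highest other library in library 43. Among the low genes, the next highest library was MFN2 library 76 for 5 genes, MFN2 library 42 and WT library 47 for 2 each, and WT libraries 44 and 46 and MFN2 library 72 for 1 each.

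Per exon length, in RPKM (CPM divided by the exon length in kilobases), Lamp5 was the most abundant of the genes in WT cord at 43.5 ± 5.01 RPKM (SD, n = 4), above every WT value of the next gene. Behind it came Rasgrf2 at 13.3 ± 0.985 RPKM, Camk2a at 12.8 ± 2.72 RPKM, Wfs1 at 12.05 ± 0.921 RPKM, Ppp1r1b at 11.7 ± 0.591 RPKM and Nrgn at 10.7 ± 1.88 RPKM (SD, n = 4 each), 5 genes whose neighbours in that order overlapped. Prox1 at 8.76 ± 0.983 RPKM, Cux2 at 6.70 ± 0.439 RPKM and Rorb at 5.71 ± 0.746 RPKM (SD, n = 4 each) were next, with a gap between Prox1 and Cux2. After a gap, the order ran without a break from Pde10a at 4.19 ± 0.359 RPKM through Drd2 at 3.49 ± 0.676 RPKM, Bcl11b, Mef2c, Bcl11a, Neurod6, Rgs9, Neurod2, Slc17a7, Itpka, Icam5, Ddn, Neurod1 and Adora2a down to Drd1 at 0.192 ± 0.0823 RPKM (SD, n = 4), and the 12 low genes followed, with Lhx2 the highest of them at 0.0553 ± 0.0419 RPKM (SD, n = 4). In library 43 the order was another one, led by Nrgn at 379 RPKM, Camk2a at 257 RPKM, Ddn at 217 RPKM and Slc17a7 at 191 RPKM, with Lamp5 at 19.95 RPKM.

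**Figure D3:**
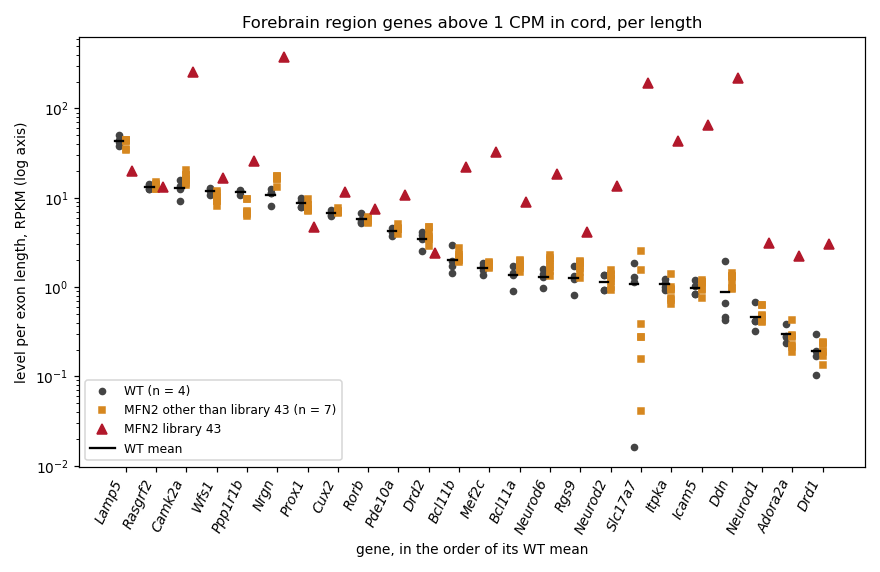
Level per exon length (RPKM, log axis) of the 24 genes above 1 CPM in at least 1 of the 11 libraries other than 43, ordered by the WT mean (black bar), with the 4 WT libraries as grey circles, the 7 other MFN2 libraries as orange squares and library 43 as a red triangle. Grey and orange symbols lie together for most genes and spread most for Slc17a7.

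Of the genes with a count in all 11 libraries, Slc17a7 varied most between them, and it was set beside Hoxd11, a Hox gene of the lumbar and sacral cord, after the values of both had been seen. Slc17a7 was at 13.6 CPM in MFN2 library 41, 10.03 CPM in WT library 45, 8.31 CPM in MFN2 library 76, 6.96 CPM in WT library 46 and 6.21 CPM in WT library 47. In these 5 libraries Hoxd11 was at 0, 0, 2.04, 0.620 and 0.991 CPM. In MFN2 libraries 42, 72, 73, 74 and 75 and in WT library 44, Slc17a7 was at 0.840, 0.220, 1.51, 2.09, 1.47 and 0.0873 CPM, and Hoxd11 at 16.4, 15.7, 5.82, 12.9, 12.7 and 14.8 CPM. Each library with more than 6 CPM of Slc17a7 was therefore below each of the others in Hoxd11. Both genotypes lay on either side, but unevenly. WT libraries 45, 46 and 47 were on the side low in Hoxd11, and MFN2 libraries 42, 72, 73, 74 and 75 on the other. The split thus goes partly with genotype and with the run of library numbers. Library 43 was at 1032 CPM of Slc17a7 and 2.02 CPM of Hoxd11. The segments that each sample took in are not given in the sources used here.

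**Figure D4:**
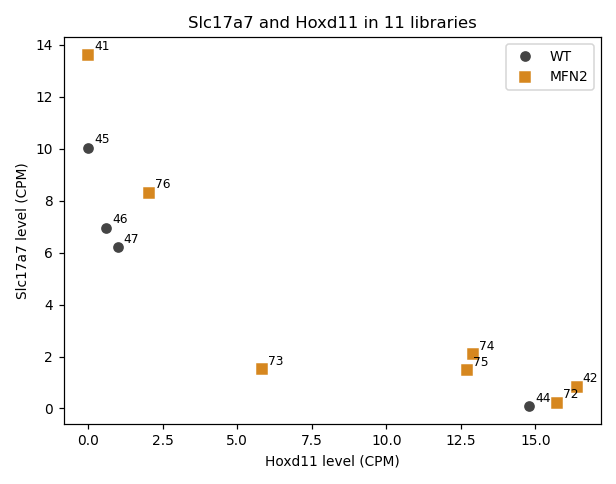
Level of Slc17a7 against that of Hoxd11, both in CPM, in the 11 libraries other than 43 (WT as grey circles, MFN2 as orange squares, with library numbers). The 5 libraries above 6 CPM of Slc17a7 lie at or below 2.04 CPM of Hoxd11, and the other 6 lie at or above 5.82 CPM.

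Between genotypes, 0 of the 36 genes changed past the threshold. Over all genes, 15942 passed the filter on low counts and 0 (0%) had a Benjamini-Hochberg adjusted p of 0.05 or less by the quasi-likelihood test of edgeR in the comparison of 8 MFN2 with 4 WT mice. At an unadjusted p under 0.05 there were 2386 (15%), and DESeq2 called 200 (1.25%), Nrgn being the 1 gene of the list among them. Without library 43, edgeR called 19 genes (0.12%) and again 0 of the list. Of the 36 genes, 23 were tested, of which Adora2a passed the filter only through library 43. Of the 23, 3 were at an unadjusted p under 0.05 in edgeR, and 19 had a higher fitted level in MFN2 mice. Their median log2 fold change was 0.83, beside 0.0038 over all tested genes, and with library 43 left out it was 0.097 over 22 genes, of which 15 were higher. In DESeq2 the median over the 23 genes was 0.10 and 16 were higher. DESeq2 was run with its default settings, under which outlying counts can be replaced before the fit in a group as large as the 8 MFN2 libraries. Which counts of library 43 were replaced was not examined, so its DESeq2 values may not include that library as counted. With a covariate for the run of library numbers in edgeR the median was 1.60 and 20 were higher, 0 of the 23 passed the threshold and 16 were at an unadjusted p under 0.05, beside 14.9% of all tested genes. With that covariate and without library 43, an alternative chosen after seeing the data, the median was 0.14 over 22 genes, of which 6 were at an unadjusted p under 0.05 in edgeR, beside 7.76% of all tested genes. The fold change was largest for Ddn, at 5.02 (SE 2.18, adjusted p = 0.311 in the edgeR test), and it was 0.48 (SE 0.353, adjusted p = 0.448 in the edgeR test) without library 43. One library thus set the size of the genotype difference of Ddn, and the same held for Icam5 (3.21 with and 0.092 without library 43), Itpka (2.53 and -0.22), Camk2a (1.87 and 0.38) and Mef2c (1.78 and 0.13).

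**Figure D5:**
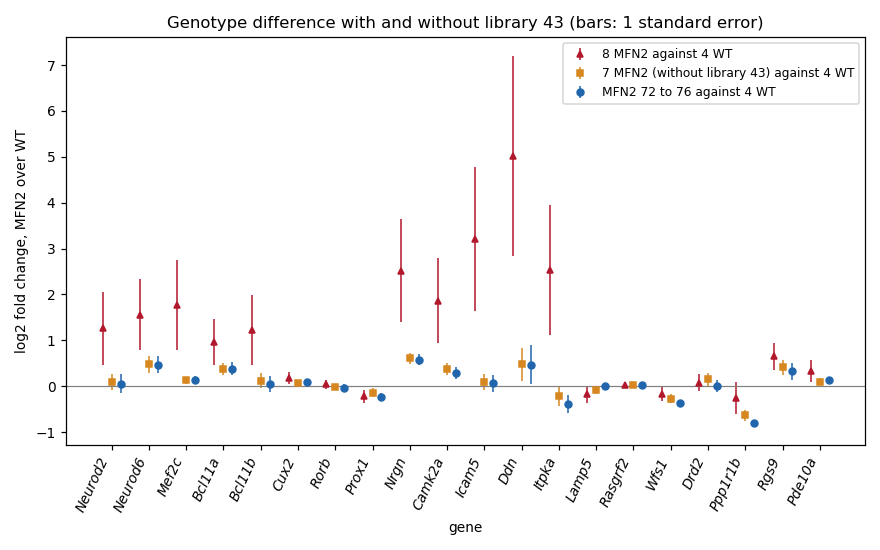
Log2 fold change of MFN2 over WT with its standard error (bars) for the 20 genes above 1 CPM in all 12 libraries, with all 8 MFN2 libraries (red triangles), without library 43 (orange squares) and with MFN2 libraries 72 to 76 alone (blue circles). Red points lie far above the others for Ddn, Icam5, Itpka and Nrgn, and orange and blue points lie within 1 log2 unit of 0.

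Nrgn was the gene of the list whose genotypes did not overlap, where 0.979% of all tested genes had all 8 MFN2 libraries above all 4 WT libraries. Its levels were 11.7, 16.3, 18.0 and 16.4 CPM in WT libraries 44 to 47. In MFN2 libraries 41 and 42 they were 25.4 and 24.3 CPM, and in MFN2 libraries 72 to 76 they were 25.2, 19.3, 23.4, 23.3 and 24.9 CPM. Even the lowest of these 7 was above the highest WT library, and library 43 was at 551 CPM. The log2 fold change was 2.52 (SE 1.13, adjusted p = 0.322 in edgeR's quasi-likelihood test) with library 43 and 0.60 (SE 0.110, adjusted p = 0.0558 in the same test) without it. Over all alternatives the adjusted p of Nrgn ranged from 0.000748 in DESeq2 to 0.862 in edgeR with MFN2 libraries 41 and 42 alone. The log2 fold change of Nrgn in DESeq2 was 0.596, near the edgeR value without library 43. Whether DESeq2 had replaced the count of library 43 as an outlier was not examined.

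Ppp1r1b went the other way outside library 43. It was at 35.5, 31.65, 34.4 and 35.0 CPM in WT libraries 44 to 47, at 28.5 and 28.0 CPM in MFN2 libraries 41 and 42, and at 18.3, 20.02, 20.6, 19.1 and 19.8 CPM in MFN2 libraries 72 to 76. So 7 of 8 MFN2 libraries were below all WT libraries, libraries 72 to 76 below the other 2, and library 43 was above them at 75.5 CPM. All 5 of libraries 72 to 76 were below all WT libraries for 10.2% of the tested genes. Its log2 fold change was -0.25 (SE 0.351, adjusted p = 0.737 in the edgeR test) with library 43 and -0.63 (SE 0.121, adjusted p = 0.0629 in the edgeR test) without it, with a range of adjusted p from 1.51e-05 to 0.862 over the alternatives. Exons of Ppp1r1b share 15.7% of their bases with a transcript on the opposite strand, and whether reads were counted by strand is not given in the sources used here.

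When MFN2 libraries 72 to 76 alone were set against the 4 WT libraries, 23.8% of 15743 tested genes passed the threshold, and 4 of the 22 tested genes of the list did. Ppp1r1b fell by 0.81 on the log2 scale (SE 0.0609, adjusted p = 1.51e-05, edgeR), Wfs1 fell by 0.37 (SE 0.0736, adjusted p = 0.00446, edgeR) and Prox1 fell by 0.23 (SE 0.0756, adjusted p = 0.0444, edgeR), while Nrgn rose by 0.57 (SE 0.119, adjusted p = 0.00548, edgeR). Wfs1 was at 40.9, 48.6, 45.01 and 48.0 CPM in WT libraries 44 to 47 and at 38.3, 31.0, 35.0, 37.98 and 34.7 CPM in these MFN2 libraries, so that these groups did not overlap, while MFN2 libraries 41 and 42, at 42.8 and 44.6 CPM, lay within the WT range. Prox1 was at 66.7, 76.7, 66.9 and 83.7 CPM in the same WT libraries and at 60.7, 61.0, 59.0, 63.0 and 70.4 CPM in the MFN2 libraries, where library 76 overlapped them. MFN2 libraries 41 and 42, at 82.2 and 69.6 CPM, lay within the WT range for Prox1 too, and with these alone its log2 fold change was 0.055. With MFN2 libraries 41 and 42, of the same run of numbers as WT, 1 gene of 14988 tested passed (0.00667%) and 0 of the 22 genes of the list, with 6 of the 22 at an unadjusted p under 0.05 in edgeR, beside 5.72% of all tested genes. Over the alternatives, the adjusted p of Wfs1 ranged from 0.00446 to 0.968 and that of Prox1 from 0.0444 to 0.972. Run and genotype cannot be told apart in libraries 72 to 76. Libraries 72, 73, 74 and 75 were also on the side high in Hoxd11, and WT libraries 45, 46 and 47 on the other. The part of that split in these differences was not tested.

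The runs of library numbers could be compared within MFN2 mice. Libraries 72 to 76 against 41 to 43 gave 2.19% of 15633 tested genes and 0 of 22 genes of the list in the edgeR test, and 11.5% and 3 of the 22 genes in DESeq2 (Lamp5, Wfs1 and Ppp1r1b). Without library 43 they gave 15.3% of 15509 genes and 5 of the 22 genes. Lamp5 rose by 0.31 (SE 0.0518, adjusted p = 0.0039, edgeR) from 101 and 103 CPM in libraries 41 and 42 to between 126 and 130 CPM in libraries 72 to 76. Ppp1r1b fell by 0.54 on the log2 scale (SE 0.0738, adjusted p = 0.0018, edgeR), Wfs1 fell by 0.31 (SE 0.0853, adjusted p = 0.0315, edgeR), Prox1 fell by 0.28 (SE 0.0825, adjusted p = 0.0416, edgeR) and Drd2 fell by 0.43 (SE 0.130, adjusted p = 0.0463, edgeR). Both comparisons share libraries 72 to 76. Over the alternatives of the comparison of runs, the adjusted p ranged from 0.0039 to 0.205 for Lamp5, from 0.0018 to 0.217 for Ppp1r1b, from 0.0178 to 0.184 for Wfs1, from 0.0416 to 0.977 for Prox1 and from 0.0463 to 0.969 for Drd2.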

How the data were processed

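RNA labelled as spinal cord, lumbar by the study's methods, was sequenced from 8 MFN2 and 4 WT mice, 1 library per mouse. The authors aligned the reads to GRCm38.p6 with STAR and deposited raw counts of reads for each Ensembl gene. Which counting tool was used, and whether by strand, is not given in the sources used here, and 11 of the 36 genes share exon bases with another gene, Icam5 26.8% of them with an antisense gene, so that their counts are uncertain. Symbols came from GENCODE M21 (49289 of 49548 genes). The 36 genes, the region lists, the rules and the alternatives were chosen with earlier results of these data known.

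Counts were scaled by TMM. Genes above 1 CPM in at least 3 libraries were tested in R 4.3.3 with edgeR 4.0.16, by the robust quasi-likelihood test (legacy form), adjusted by Benjamini-Hochberg over all tested genes at 0.05; DESeq2 1.42.0 was an alternative. Standard errors came from the F statistic. Counts of any 2 libraries of a genotype differed beyond sampling noise (chi-square per gene of at least 5.34). RPKM were computed from these counts and GENCODE exon lengths. Some genes of the region lists are not reported here one by one, but count in their lists. All 36 genes are named; fold changes are given one by one for those above 1 CPM in all 12 libraries. Of genes in no list, the 15 with the largest and the 10 with the smallest ratio of library 43 to the nearest other library were named, with 0.5 CPM added and a minimum of 5 CPM. Ratio intervals are 95% intervals of counting error. Counts were also simulated with a dispersion of 0.05 and log2 fold changes of 1. For the genotype comparison, the test recovered 170 of 191 changed genes (89.0%) among 15800 with 9 false calls. For the comparison of runs it recovered 122 of 198 (61.6%) among 15630 with 7. These shares hold for that dispersion only. The simulated counts held no library that stood apart as library 43 does, and no run effect in the genotype comparison. They therefore do not give the share that the test would recover in the real libraries.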

Additional observations from a re-analysis of the deposited data

Results flagged for a closer look

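Within each genotype, the highest and the lowest library of every one of the 36 genes and of the 18 further lists' sums were compared with the rest of their group, by the gap to the nearest library as a share of the whole range. In 108 such groups, 47 exceeded Dixon's critical share (0.526 for 8 libraries, 0.829 for 4), and 40 of the 47 were in library 43. Chance alone would exceed it in about 5.4 of 108 groups, but the genes and lists were chosen with library 43 already known to stand apart, so that these counts describe that library and test nothing.

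Library 43 stood apart as the highest MFN2 library for 32 of the 36 genes. Among the patterning factors the gap was a share of the range of 0.977 for Emx1, 0.980 for both Emx2 and Lhx2, 0.955 for Otx1 and 0.988 for Fezf2. Excitatory and layer factors had shares of 0.993 for Tbr1, 0.915 for Neurod1, 0.951 for Neurod2, 0.945 for Neurod6, 0.991 for Mef2c, 0.931 for Bcl11a, 0.960 for Bcl11b, 0.825 for Cux2 and 0.643 for Rorb. For the other excitatory genes the shares were 0.998 for Ddn, 0.993 for Icam5, 0.989 for Nrgn, 0.987 for Slc17a7, 0.982 for Itpka, 0.974 for Camk2a and 0.565 for Wfs1. Striatal genes gave 0.962 for Drd1, 0.882 for Adora2a, 0.821 for Ppp1r1b, 0.763 for Rgs9, 0.836 for Pde10a and 0.737 for Six3, and the GABAergic factors 0.994 for Dlx1, 1 for Dlx2, 0.981 for Dlx5, 0.951 for Dlx6 and 0.967 for Lhx6. A share of 1 means that the 7 other libraries held the same value, which for Dlx2 was 0. Lamp5 stood apart as the lowest of the MFN2 libraries in library 43, with a share of 0.604.

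Library 43 was also apart in the sums of 7 further lists. It was highest for cortex (0.927), dentate gyrus (0.949, of which C1ql3 made up 88.3% of the sum), forebrain interneuron (0.978), olfactory bulb (0.755) and thalamus (0.726) genes, and lowest for caudal Hox (0.813) and cord interneuron (0.724) genes.

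Outside library 43, 7 groups were apart. WT library 47 was highest for Emx2 (0.969, at 0.157 CPM), Tbr1 (0.893, at 0.522 CPM), Six3 (1, at 0.261 CPM) and Ddn (0.839, at 7.36 CPM). WT library 45 was highest for Emx1 (1, at 0.0942 CPM) and WT library 44 for Dlx5 (1, at 0.0873 CPM). Apart from Ddn, these values rest on few counts. The astrocyte sum was highest in MFN2 library 41 (0.606, at 8611 CPM).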

How the results depend on the processing

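The count of 29 genes more than 2-fold above every other library in library 43 was between 25 and 30 under the other fold thresholds, scalings and reference values tried, and 29 with each of the other libraries left out. The count of 20 genes above 1 CPM in cord was 13 above 1 RPKM, a per-length limit that long genes pass less easily, between 18 and 22 under the other limits, and 20 to 21 with a library left out. Genes of the list called between genotypes numbered 0 in edgeR, 1 in DESeq2 (Nrgn) and 4 with MFN2 libraries 72 to 76 alone, and 0 with each library left out in turn. All genes called numbered 0 in edgeR, 200 in DESeq2, 1 with MFN2 libraries 41 to 43, 1 with 41 and 42 and 3746 with 72 to 76, and 0 to 19 with a library left out (19 without library 43, 7 without 41 and 1 without 76). Between runs of MFN2 libraries, genes of the list called numbered 0 in edgeR and 3 in DESeq2, and 0 to 5 with a library left out, the 5 without library 43.

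Log2 fold changes between genotypes kept their sign and their side of the threshold in 476 of the values under other settings, crossed the threshold in 5 and changed sign in 19. With MFN2 libraries 72 to 76 alone, Rorb was at -0.036 and Itpka at -0.39; with 41 and 42 alone, Prox1 was at 0.055 and Rasgrf2 at -0.0017; with 41 to 43 alone, Wfs1 was at 0.15 and Ppp1r1b at 0.39. In DESeq2 Itpka was at -0.20. With a covariate for the run of numbers, Rasgrf2 was at -0.0069, Wfs1 at 0.13 and Ppp1r1b at 0.36, and with library 43 also left out, an alternative chosen after seeing the data, Prox1 was at 0.046 and Rasgrf2 at -0.012. With a library left out, Rorb ranged from -0.014 to 0.14, Itpka from -0.22 to 2.72, Rasgrf2 from -0.012 to 0.058 and Drd2 from -0.046 to 0.16. The cause of these changes was not tested. No paired analysis was made because the sample labels do not pair any MFN2 mouse with a WT mouse. At these depths, genes below about 1 CPM rest on few counts.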

Other observations

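Outside all lists, the genes with the largest ratio of library 43 to the highest other library were Chrm1, Kcnj4, Ccn3, Kcnh3, Ptk2b, Crym, Rgs14, Ankrd63, Rtn4rl2, Kcnv1, Rin1, Rasgrp1, Gda, Abi3bp and Neurl1b, taken among genes of at least 5 CPM. Chrm1, the muscarinic acetylcholine receptor M1, was at 130 CPM in library 43 and between 0.393 and 1.33 CPM in the other 11 libraries. Kcnj4, an inward rectifier potassium channel, was at 114 CPM against 0.0437 to 1.46 CPM, and Kcnh3, a voltage-gated potassium channel, was at 87.7 CPM against 0.443 to 1.30 CPM. Ptk2b, a calcium-dependent tyrosine kinase, was the most abundant of the 15 at 424 CPM against 5.54 to 11.02 CPM. Rgs14, a regulator of G protein signalling known for hippocampal field CA2, was at 42.2 CPM against 0.395 to 0.763 CPM, and Gda, guanine deaminase, was at 307 CPM against 3.58 to 11.7 CPM.

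The genes with the smallest ratio to the lowest other library were Ahnak2, Nefh, Syt2, Calca, Rab37, Spp1, Chodl, Rassf4, Arhgap36 and Ret. Nefh, the heavy neurofilament subunit of large axons, was at 326 CPM in library 43 and between 1610 and 2939 CPM in the others. Syt2, a calcium sensor of fast transmitter release, was at 137 CPM against 668 to 842 CPM. Calca, which encodes the peptide CGRP, was at 1.27 CPM against 8.01 to 25.4 CPM, and Chodl, a marker of fast motor neurons, was at 3.14 CPM against 16.5 to 47.8 CPM. These 25 genes were chosen for their ratio in library 43, and their values are a description of that library.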
